A study of Mus musculus with 7 samples.

Results

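Early recovery of the mouse pancreas from caerulein injury was followed in open chromatin by setting the regions accessible at day 7 against those accessible at day 1. An opened region was a day 7 region that no day 1 region overlapped by at least 1 bp, and a closed region was a day 1 region that no day 7 region overlapped. Of 145337 day 7 regions on the 19 autosomes and X, 30416 were opened, or 20.9% (exact Clopper-Pearson 95% interval 20.7 to 21.1%). Of 164684 day 1 regions, 60073 were closed, or 36.5% (36.2 to 36.7%). Both groups were epithelial cells purified from the digested pancreata of wild-type C57BL/6J mice that had received caerulein, harvested 7 days after it in the day 7 group and 1 day after it in the day 1 group. The assay was ATAC-seq, in which a transposase cuts accessible DNA and adds sequencing adapters. Each group was 1 library, so no difference here has a replicate check and no p-value is given; the labels do not say how many mice gave a library or how the epithelium was purified. The intervals cover counting error only.

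Caerulein is a cholecystokinin analogue that drives acinar cells, the enzyme-producing cells of the exocrine pancreas, into excess secretion and provokes a transient pancreatitis. Injured acinar cells lower their digestive enzyme genes and take on duct-like features, and as inflammation resolves they regain the acinar program, which the transcription factors PTF1A, RBPJL, NR5A2, BHLHA15 and GATA4 are known to maintain. Stellate cells and fibroblasts lay down matrix during the injury. ATAC-seq reads accessible promoters and enhancers, including those that AP-1, the FOS-JUN dimers induced by stress, is known to bind.

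Promoters that lay in regions found at only 1 of the times show the sequences behind the comparison. RefSeq promoters of build GRCm38.p6, from 250 bases before to 50 bases after each annotated start, were available for 17274 of 21631 protein-coding genes, with 21045 starts. The start itself lay in an opened region for 263 promoters (1.25%), in a closed region for 178 (0.846%) and in a region shared by both times for 12713 (60.4%). The 4 opened enzyme promoters shown were chosen, after their values were seen, among the 5 of 8 opened enzyme starts that hold TTCCCA, the core of the box that RBPJ and RBPJL bind within the PTF1 complex; those of Pla2g1b, Cela3b and Try4 do not hold it. Capitals mark, in these and in the closed promoters that follow, TTCCCA or its reverse complement TGGGAA, the core of the NR5A2 site (AAGGTCA, or TGACCTT on the other strand), and TGANTCA, which covers the AP-1 site and also matches with other middle letters. The opened ones belong to Cel (carboxyl ester lipase), at chr2:28563354-28563653 on the minus strand, Cela2a (an elastase), at chr4:141825956-141826255 on the minus strand, Cpa1 (a carboxypeptidase), at chr6:30638968-30639267 on the plus strand, and Ctrl (a chymotrypsin-like protease), at chr8:105933813-105934112 on the minus strand.
Cel: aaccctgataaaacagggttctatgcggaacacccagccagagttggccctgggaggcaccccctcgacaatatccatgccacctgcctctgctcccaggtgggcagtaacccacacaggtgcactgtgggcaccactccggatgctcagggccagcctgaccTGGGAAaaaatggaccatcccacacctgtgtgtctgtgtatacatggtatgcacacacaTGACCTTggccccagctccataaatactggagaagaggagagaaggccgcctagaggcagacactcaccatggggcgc
Cela2a: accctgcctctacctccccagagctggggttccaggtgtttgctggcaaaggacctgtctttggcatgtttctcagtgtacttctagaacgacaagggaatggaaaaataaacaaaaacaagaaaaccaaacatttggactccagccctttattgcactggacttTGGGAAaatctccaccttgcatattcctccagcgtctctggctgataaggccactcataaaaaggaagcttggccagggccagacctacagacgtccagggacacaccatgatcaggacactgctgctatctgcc
Cpa1: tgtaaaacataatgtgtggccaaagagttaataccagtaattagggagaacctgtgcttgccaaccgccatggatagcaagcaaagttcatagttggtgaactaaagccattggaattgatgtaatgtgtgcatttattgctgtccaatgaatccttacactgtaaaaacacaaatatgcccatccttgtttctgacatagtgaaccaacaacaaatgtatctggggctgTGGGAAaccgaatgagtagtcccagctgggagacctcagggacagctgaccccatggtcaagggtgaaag
Ctrl: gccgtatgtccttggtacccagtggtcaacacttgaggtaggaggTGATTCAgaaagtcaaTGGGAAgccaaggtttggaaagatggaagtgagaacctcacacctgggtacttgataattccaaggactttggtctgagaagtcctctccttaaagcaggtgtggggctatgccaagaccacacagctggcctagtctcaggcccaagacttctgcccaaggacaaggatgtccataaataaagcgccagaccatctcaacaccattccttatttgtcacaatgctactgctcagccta

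In the closed set, the 3 promoters with the highest day 1 fold among those holding TGANTCA are shown. They were picked after their values were seen. Across both sets, the opened Ctrl promoter also holds TGANTCA and the closed Cpa4 promoter also holds TTCCCA. The closed ones belong to Sh3kbp1 (an adaptor of receptor endocytosis), at chrX:159840218-159840517, Havcr2 (the immune receptor TIM-3), at chr11:46454681-46454980, and Cpa4 (a carboxypeptidase), at chr6:30568119-30568418, all on the plus strand.
Sh3kbp1: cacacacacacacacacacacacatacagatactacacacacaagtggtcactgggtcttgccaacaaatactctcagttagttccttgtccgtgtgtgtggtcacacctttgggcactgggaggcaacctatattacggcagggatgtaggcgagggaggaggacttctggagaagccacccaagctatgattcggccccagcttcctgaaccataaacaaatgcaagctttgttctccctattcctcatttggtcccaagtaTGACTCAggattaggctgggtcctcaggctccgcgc
Havcr2: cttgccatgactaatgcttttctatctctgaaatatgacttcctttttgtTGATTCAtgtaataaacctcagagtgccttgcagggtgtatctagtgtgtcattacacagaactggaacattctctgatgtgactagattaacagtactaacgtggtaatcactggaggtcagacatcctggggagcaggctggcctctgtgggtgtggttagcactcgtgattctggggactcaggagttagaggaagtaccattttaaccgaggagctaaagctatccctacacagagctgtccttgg
Cpa4: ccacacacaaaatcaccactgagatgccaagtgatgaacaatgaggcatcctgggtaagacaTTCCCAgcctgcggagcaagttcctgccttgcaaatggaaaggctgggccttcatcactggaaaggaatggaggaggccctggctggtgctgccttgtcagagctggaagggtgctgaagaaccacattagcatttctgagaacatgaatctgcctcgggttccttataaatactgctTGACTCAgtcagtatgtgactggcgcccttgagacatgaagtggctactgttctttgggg

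The 7 motifs given here were searched on both strands, and N stands for any base; TGANTCA reads the same on both strands. TGANTCA was in 19 of 263 opened promoters (7.22%, 4.41 to 11.1%) and in 40 of 178 closed promoters (22.5%, 16.6 to 29.3%), against 5.07% of shared promoters and 7.04% of all promoters. These 2 intervals did not overlap, and the opened share lay at the level of all promoters. TGTGGT, the core of the RUNX site, was in 15.6% of opened, 22.5% of closed and 14.7% of all promoters. TTCCCA was in 30.0% of opened, 24.7% of closed and 24.2% of all promoters, and AGATAA, the core of the GATA site, in 14.1% of opened, 10.1% of closed and 9.68% of all. AAGGTCA was in 4.56% of opened, 4.49% of closed and 4.06% of all. CCACG, held by the sites that XBP1 and ATF6 bind, was in 25.1% of opened, 33.1% of closed and 37.7% of all, and CCGGAA, the core of ETS sites, in 5.32%, 10.1% and 18.9%. A match describes letters in a window and not a bound site. Opened and closed promoters were also poorer in CpG than shared ones, with a median of 6 CpG in each of the changed sets, against 21 in shared promoters, and a median GC content of 54% in opened and 53% in closed promoters, against 62% in shared promoters. The 7550 promoters with a start in no region had a median of 3 CpG. They held TGANTCA in 10.0%, TGTGGT in 20.4%, TTCCCA in 25.8% and AGATAA in 16.8% of cases. AAGGTCA was in 6.08% of them, CCACG in 18.4% and CCGGAA in 5.38%. The AGATAA share of opened and the TGTGGT share of closed promoters thus lay near those of promoters with no region.

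The libraries differed in depth, which bears on every count. The depth recovered from the authors' fold enrichment and p-values was a background pileup of 2.72 at day 7 and 5.35 at day 1. The weakest region listed had a fold of 2.95 at day 7 and 2.36 at day 1. Here fold is the authors' enrichment of the region's summit over background and was used within a list only. The lowest −log10 q listed also differed, at 2.31 at day 7 and 1.89 at day 1, so the lowest folds do not follow from depth alone. The day 7 list covered 76.7 Mb with a median width of 340 bp, and the day 1 list 97.3 Mb with 375 bp. Of the closed regions, 2743 (4.57%) had a day 1 fold below the lowest fold of the day 7 list. Leaving out regions below that common floor gave 31087 opened and 57330 closed regions. What part of the excess of closed over opened regions came with depth or with the lower q limit of the day 1 list was not tested.

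Changed regions were mostly narrow and weak. Opened regions covered 7.50 Mb, or 9.77% of the bases of the day 7 list, with a median width of 202 bp and a median fold of 4.57; the day 7 regions shared with day 1 had 401 bp and 8.33. Closed regions covered 16.8 Mb, or 17.3% of the bases of the day 1 list, with 233 bp and a fold of 3.94, against 545 bp and 10.2 in the day 1 regions shared with day 7. With each list cut into deciles by fold, 46.7% of regions were opened in the weakest decile of the day 7 list, 0.344% in the decile below the strongest, and 0 of 14555 in the strongest. In the weakest decile of the day 1 list 70.9% were closed, in the decile below the strongest 2.80%, and in the strongest 7 of 16455 (0.0425%). Among regions with a fold of at least 10 in their own list, 906 of 49671 day 7 regions were opened (1.82%, 1.71 to 1.95%) and 3985 of 57237 day 1 regions were closed (6.96%, 6.76 to 7.17%). The strongest sites of either time were thus open at the other time as well.

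**Figure D1:**
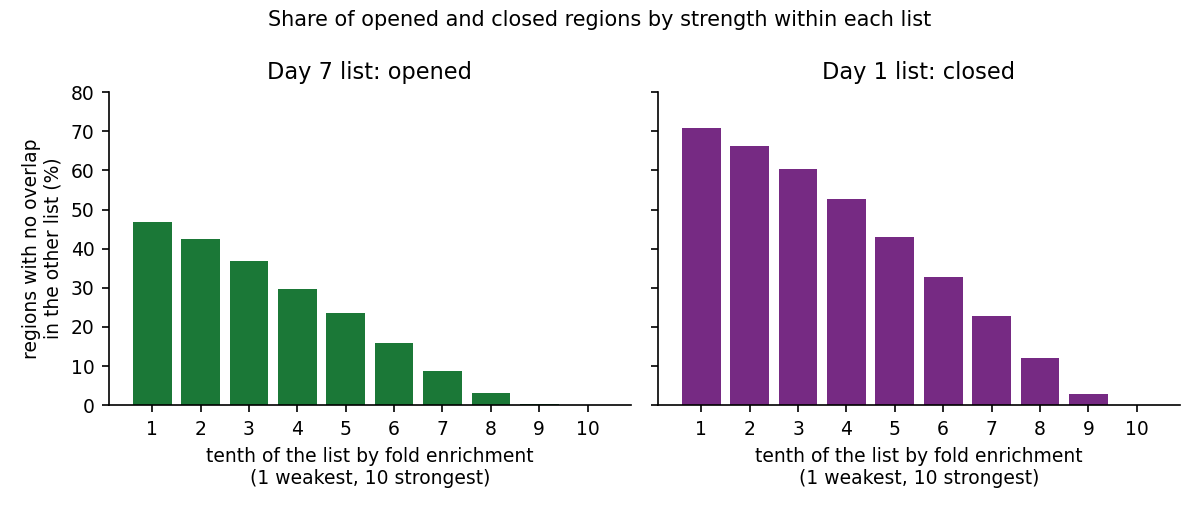
Percent of regions with no overlap in the other list (vertical axis) in each decile of a list ranked by fold enrichment (horizontal axis, 1 weakest, 10 strongest), for day 7 regions (left, opened) and day 1 regions (right, closed). Opened shares run from 46.7% in the weakest decile to 0 in the strongest, and closed shares from 70.9% to 0.0425%.

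Many changed regions lay close to a region of the other list. The nearest day 1 region was a median of 1945 bp away from an opened region and within 500 bp of 28.1% of them. The nearest day 7 region was a median of 1421 bp from a closed region and within 500 bp of 30.4%. Requiring an overlap of at least 50% of a region, instead of 1 bp, gave 36495 opened and 74780 closed regions, and requiring that no region of the other list lay within 500 bp gave 21883 and 41815. Across chromosomes, the opened share was lowest on X, with 16.6% (385 of 2315 regions), and highest on chromosome 4, with 22.9%. The closed share was lowest on chromosome 11, with 32.2%, and highest on chromosome 18, with 40.4%; on X it was 39.3%.

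Both opened and closed regions lay away from gene ends. A summit was assigned to the closest span of a protein-coding gene, and a gene end here is the 1 kb around either end of the span, since the gene table used has no exons. Summits within 1 kb of a gene end made up 7.23% of opened regions, against 14.9% of the day 7 regions shared with day 1. They made up 5.25% of closed regions, against 15.5% of the shared day 1 regions. Summits inside a gene span were 54.1% of opened and 53.9% of closed regions, against 48.5% and 47.8% of the shared regions of the same lists. Beyond 50 kb from any gene lay 12.9% of opened and 16.6% of closed regions, against 12.4% and 12.5% of shared ones. Read the other way, 11.4% of day 7 regions at gene ends were opened and 22.8% of those inside genes, and 16.3% of day 1 regions at gene ends were closed, 39.3% of those inside genes and 43.3% of those beyond 50 kb.

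**Figure D2:**
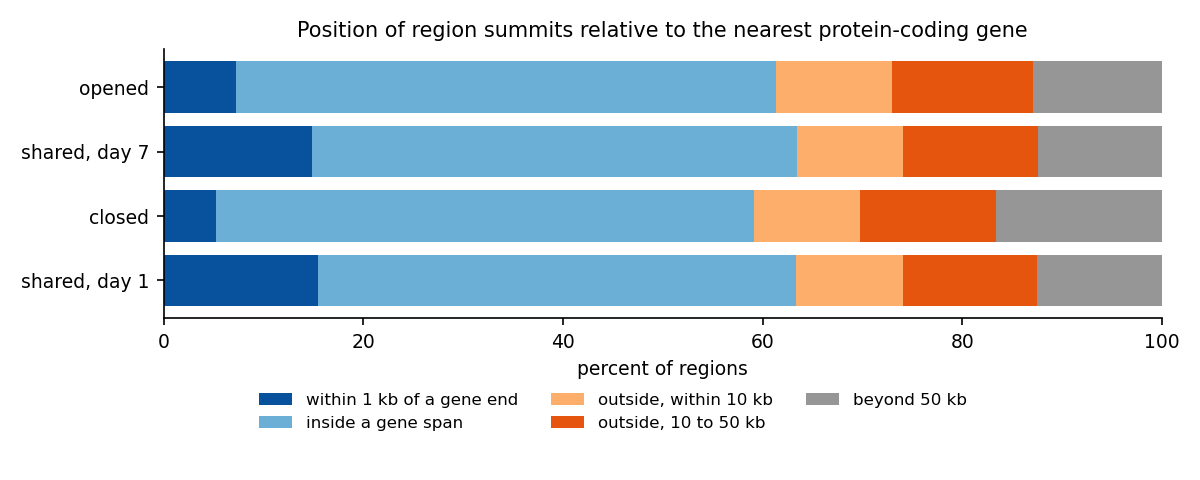
Where opened, closed and shared regions lie relative to protein-coding genes, as percent of the regions of each kind in each location class. Gene ends hold 7.23% of opened and 5.25% of closed regions, against 14.9% and 15.5% of the shared regions of days 7 and 1.

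Within 50 kb of a gene, 26497 of 127142 day 7 regions were opened (20.8%) and 50110 of 141679 day 1 regions were closed (35.4%), so 34.6% of the changed linked regions were opened. That share moved with the regions kept: among the 100000 strongest regions of each list it was 46.1%, and among regions with a fold of at least 10 it was 20.5%. Opened regions touched 9213 genes and closed regions 11481, of 17152 genes with any region. Both kinds occurred at 6844 genes, opened ones alone at 2369 and closed ones alone at 4637. Of all 21631 genes, 8418 had more closed than opened regions and 4023 more opened than closed. The other 9190 had equal numbers, among them 4479 with no region at either time. Opened gene ends were found at 1864 of 13073 genes with a day 7 region there (14.3%), and closed gene ends at 2701 of 12997 genes with a day 1 region there (20.8%). Over 3841 genes with at least 10 day 7 regions the median share opened was 18.75%, and at 188 (4.89%) over 50% of the regions were opened. Over 4292 genes with at least 10 day 1 regions the median share closed was 36.4%, and at 727 (16.9%) over 50% were closed. These values are the background for the gene groups that follow, which are described by counts only.

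Digestive enzyme genes opened at most of their regions. Over 30 genes of lipases, proteases, amylases, ribonuclease and granule proteins, 125 of 177 day 7 regions were opened (70.6%, 63.3 to 77.2%), against 20.8% of all linked day 7 regions. Of their day 1 regions, 9 of 63 were closed (14.3%, 6.75 to 25.4%), against 35.4% of all linked day 1 regions. At least 1 region opened at 26 of the 30 genes and closed at 6. Of 20 of these genes with a day 7 region at a gene end, 18 had an opened one, against the 14.3% of all such genes given above. At 14 of the 30 genes no day 1 region was linked; 4 of those, Prss1, Prss3, Amy2a5 and Serpini2, had none at day 7 either. Trypsin and amylase genes have near-identical copies, to which short reads may not map uniquely, so values at these loci are uncertain.

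Among lipases, Cel, the bile-salt activated lipase, had 7 day 7 regions, all opened, and no day 1 region; their day 7 folds ran from 4.30 to 20.4 with a median of 5.64. The strongest lay over its start, at chr2:28563119-28563676, in the promoter printed above. Pnlip, the pancreatic triglyceride lipase, had 8 of 13 day 7 regions opened and 2 of 7 day 1 regions closed. Pla2g1b, a secreted phospholipase, had 5 of 9 opened and 0 of 4 closed. Pnliprp1, a lipase-related protein, had 4 of 5 opened and 1 of 2 closed, and Clps, the colipase that anchors lipase on fat droplets, 4 of 6 and 0 of 3. The 6 lipase genes together had 30 of 45 day 7 regions opened (66.7%) and 3 of 19 day 1 regions closed.

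Among proteases, Cela2a had 19 of 21 day 7 regions opened and 0 of 2 day 1 regions closed. Its opened regions had day 7 folds of 3.49 to 20.7, median 4.84, and 12 of them lay inside the gene. The strongest, at chr4:141827358-141828727, lay 2338 bp from the gene. Cela1 had 13 of 18 opened and 0 of 7 closed, and Cela3b 7 of 8 and 0 of 1. Prss2 and Try10, trypsinogens, had 7 of 12 and 7 of 7 opened, and 1 of 6 closed at Prss2; Try10 had no day 1 region. Over the 16 protease genes 80 of 114 day 7 regions were opened (70.2%) and 5 of 40 day 1 regions closed (12.5%).

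At Rnase1, the pancreatic ribonuclease, all 6 day 7 regions were opened and there was no day 1 region. Zg16, a zymogen granule protein, had 3 of 4 opened and 1 of 2 closed, and Gp2, the main granule membrane protein, 2 of 2 opened with none at day 1. Starts in an opened region were found at Cel (day 7 fold 20.4), Cela2a (11.3), Ctrl (10.2), Rnase1 (8.06), Try4 (8.06), Pla2g1b (7.52), Cpa1 (6.45) and Cela3b (6.45). No enzyme gene of the promoter table had its start in a closed region. Of all promoters, 1.25% had a start in an opened and 0.846% in a closed region, so no closed start among so few genes does not set them apart. Most opened enzyme regions were of moderate strength: with a fold of at least 10 required, 13 of 44 day 7 regions were opened and 0 of 18 day 1 regions closed. Over all linked regions at that fold, 1.79% were opened and 6.19% closed, so 0 of 18 is too few to set apart from the background.

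**Figure D3:**
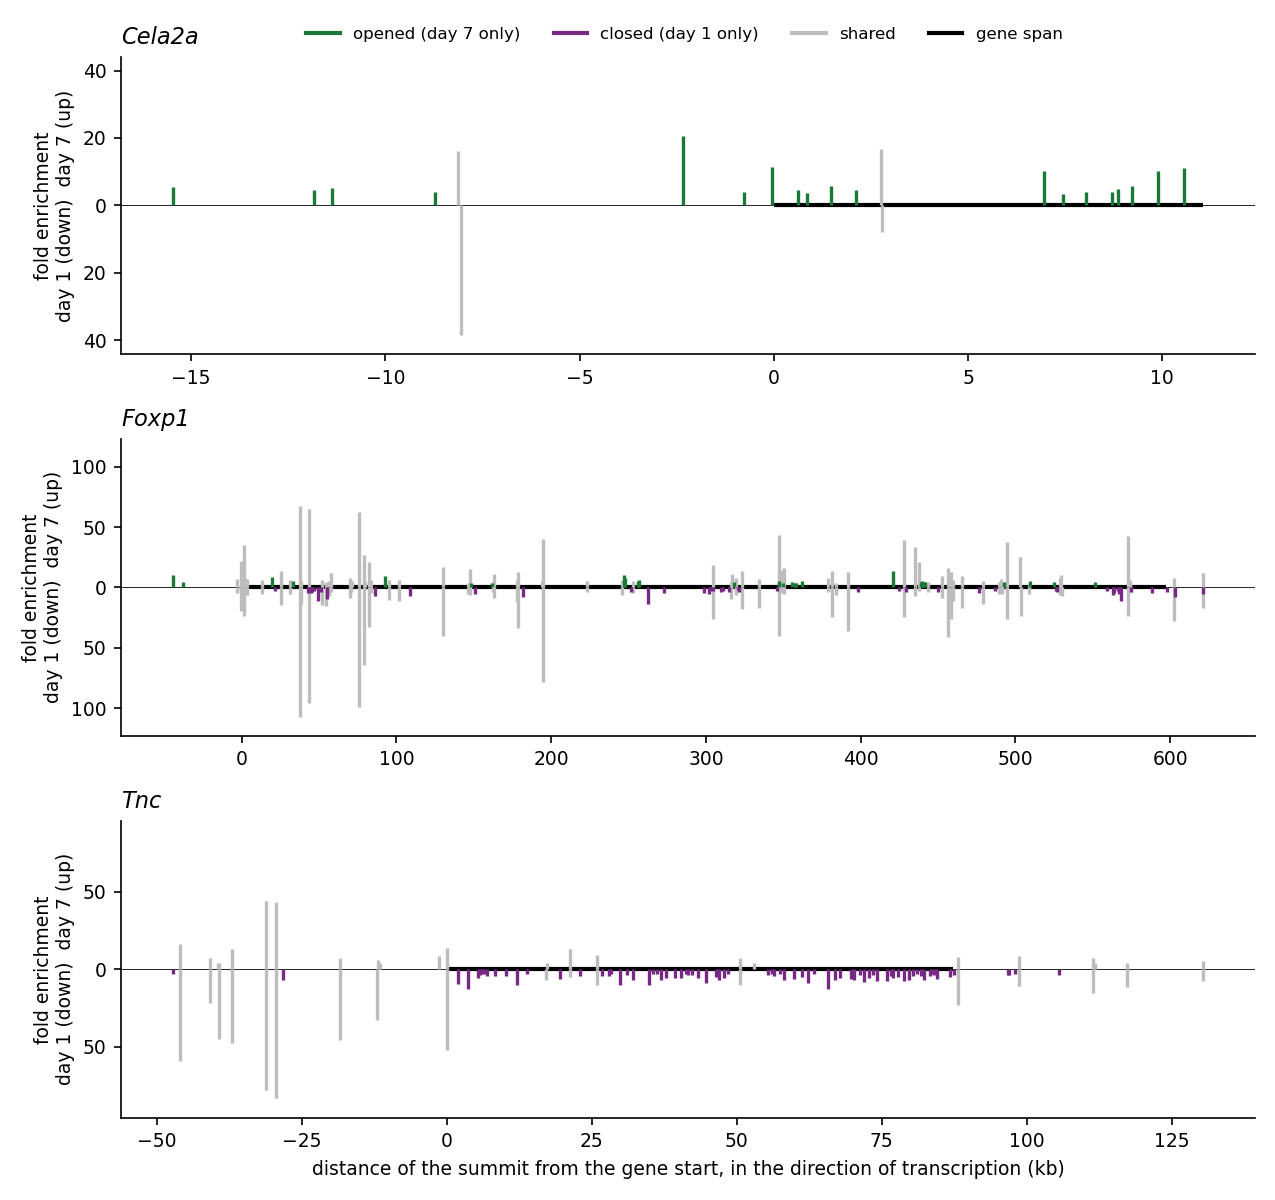
Regions at Cela2a, Foxp1 and Tnc, with the distance of each summit from the gene start in kb on the horizontal axis and fold enrichment on the vertical axis, day 7 upwards and day 1 downwards; colours mark opened, closed and shared regions and the black bar the gene. At Cela2a 19 of 21 day 7 regions are opened, at Foxp1 28 of 102 are opened and 45 of 120 day 1 regions closed, and at Tnc 76 of 94 day 1 regions are closed and 0 of 23 day 7 regions opened.

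Genes of acinar transcription factors opened as well, though less evenly than the enzymes. Over 13 genes 127 of 286 day 7 regions were opened (44.4%, 38.6 to 50.4%) and 72 of 235 day 1 regions closed (30.6%, 24.8 to 37.0%), and 11 of the 13 had more opened than closed regions. Gata4, a regulator of pancreatic and gut epithelium, had 15 of 28 opened and 1 of 13 closed, with opened day 7 folds of 3.22 to 6.72. Nr5a2, a nuclear receptor of acinar enzyme genes, had 14 of 28 opened and 2 of 16 closed, and Xbp1, a regulator of secretory capacity, 13 of 19 and 2 of 8. Ptf1a, the defining acinar factor, had 6 of 9 opened and 0 of 3 closed, Rbpjl, its partner in the PTF1 complex, 10 of 15 and 2 of 10, and Bhlha15 (MIST1), which organises granule maturation, 4 of 5 and 0 of 1. Opened gene ends were found at 8 of the 12 genes with a day 7 region there, against 14.3% of all such genes. Among them were Ptf1a, Gata4, Nr5a2, Xbp1, Rbpjl, Bhlha15 and Mecom.

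Foxp1 and Mecom, the exceptions among the 13, held more closed than opened regions. Foxp1, a forkhead factor gene with many regions, had 28 of 102 opened and 45 of 120 closed, and Mecom, a zinc finger factor, 11 of 35 and 16 of 40. At Foxp1 22 of the 28 opened regions overlapped a day 28 region and 3 of the 45 closed ones did. Over all regions 59.1% of opened and 8.66% of closed ones did, so the closed count at Foxp1 lay near the background. Opened day 7 folds there ran from 3.22 to 13.2 and closed day 1 folds from 2.52 to 13.6, and both kinds were scattered along the gene, as the map of the 3 loci shows.

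Genes of the unfolded protein response and the secretory pathway, which serve the high protein output of acinar cells, were split. Of their regions 66 of 225 at day 7 were opened (29.3%, 23.5 to 35.8%) and 69 of 216 at day 1 closed (31.9%). The opened share lay above the 20.8% of all linked day 7 regions. Herpud1, a part of ER-associated degradation, had 13 of 18 opened and 0 of 8 closed. Sel1l, another part of that machinery, had 11 of 22 and 4 of 14, Eif2ak3 (the ER stress kinase PERK) 10 of 20 and 3 of 15, and Ern1 (the ER stress sensor IRE1) 9 of 20 and 5 of 17. Creb3l2, Atf6 and Creb3l1, membrane-bound transcription factors, went the other way, with 4 of 45, 4 of 22 and 4 of 24 opened and 22 of 56, 10 of 24 and 9 of 27 closed. All 3 day 7 regions linked to Pdia2, a protein disulphide isomerase of the pancreas, were opened, with folds up to 7.25. Its start lay in another opened region, of day 7 fold 8.06, which was not among the 3 linked to Pdia2. The opened share of the changed regions of these genes was 48.9%, and 61.0% with the 100000 strongest regions of each list.

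Genes known to be induced in caerulein injury also opened by day 7. Over 10 such genes 16 of 24 day 7 regions were opened (66.7%, 44.7 to 84.4%), against 20.8% of all linked day 7 regions. Of their day 1 regions 0 of 8 were closed (0 to 36.9%). That interval holds the 35.4% of all linked day 1 regions, so 0 of 8 is too few to set apart from the background. Spink1, the trypsin inhibitor of acinar cells, had 7 of 9 opened, Tff2, a trefoil peptide, 3 of 5 and Lcn2, a secreted lipocalin, 2 of 3. Reg1, a regenerating-family lectin, and Reg3d each had a single day 7 region, which was opened and covered the start, with folds of 15.6 and 5.91. Reg2 and Reg3b had no region at either time.

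Ductal and metaplasia genes were mixed, opening at some epithelial genes and closing at Cd44. Over 25 genes 127 of 392 day 7 regions were opened (32.4%, 27.8 to 37.3%) and 134 of 395 day 1 regions closed (33.9%). The opened share lay above the 20.8% of all linked day 7 regions. Of these genes, 15 had more opened and 10 more closed regions. Clu, the secreted chaperone clusterin, had 17 of 22 opened and 0 of 6 closed, with opened day 7 folds of 3.76 to 9.40. Krt18, a keratin of simple epithelia, had 13 of 19 and 1 of 8, and its partner Krt8 7 of 12 and 0 of 6. Slc4a4, the bicarbonate cotransporter, had 10 of 36 opened and 12 of 36 closed. Cd44, the hyaluronan receptor, had 1 of 40 opened and 58 of 89 closed, with closed day 1 folds of 2.84 to 14.7. Anxa2, an annexin, had 1 of 16 and 10 of 25, and Sox9, the duct and progenitor factor, 2 of 14 and 9 of 21. Cftr, the duct chloride channel, had its start in an opened region of fold 8.33. The opened share of changed regions in this group was 48.7%, and 63.3% with the 100000 strongest regions of each list.

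**Figure D4:**
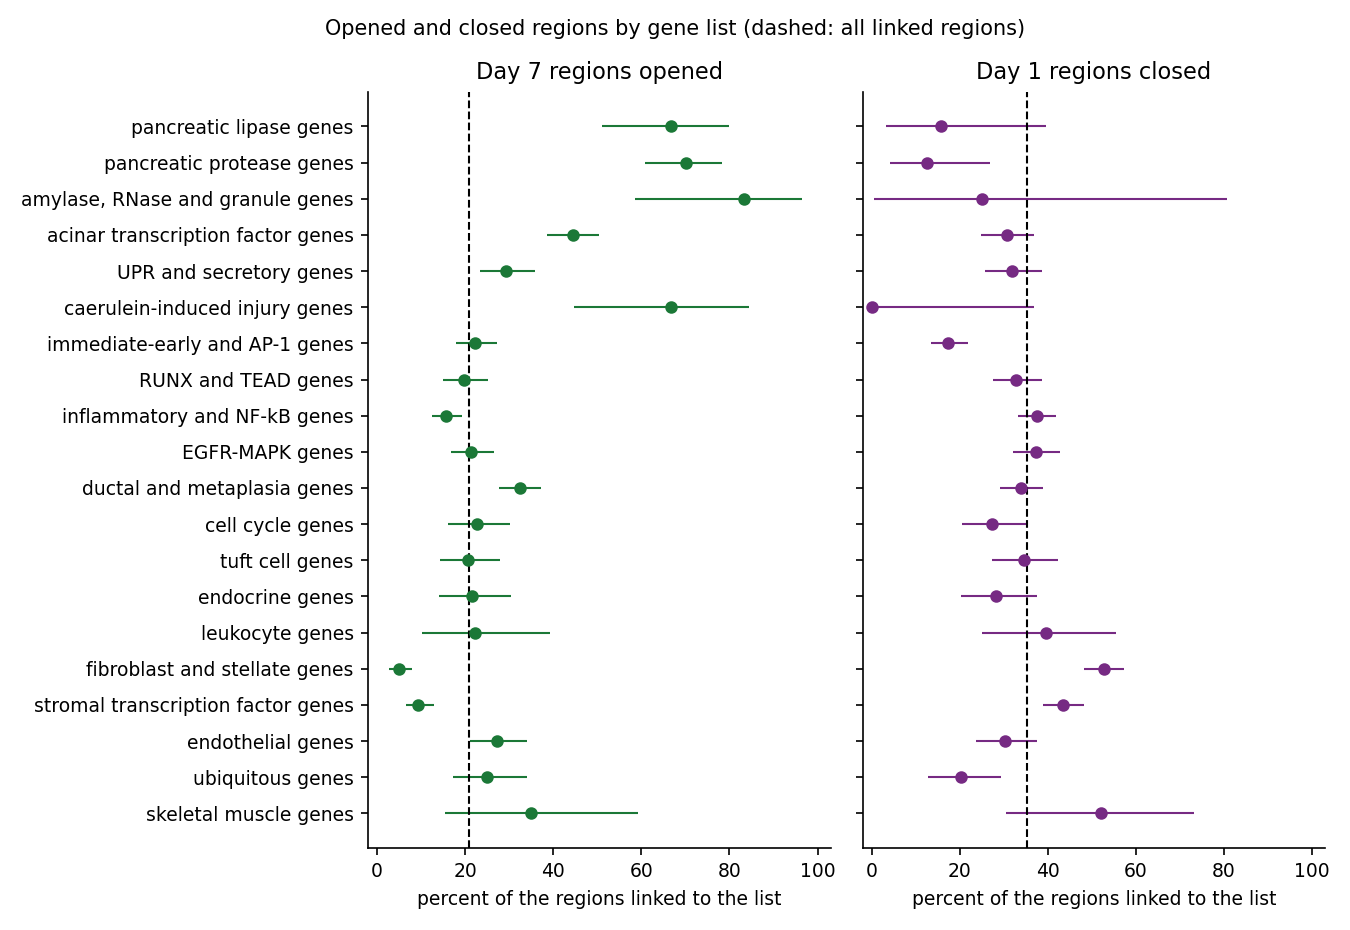
Percent of linked day 7 regions that were opened and of linked day 1 regions that were closed for each gene group, with exact 95% intervals and the values over all linked regions, 20.8% opened and 35.4% closed. Enzyme, injury and acinar factor genes lie above the opened background, and fibroblast and stromal factor genes lie below it and above the closed background. Ductal and metaplasia (32.4%), unfolded protein response and secretory (29.3%) and endothelial genes (27.3%) also lie above the opened background, with intervals that leave it out. Inflammatory genes (15.6%) lie below the opened background.

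Immediate-early and AP-1 genes, the early responders to stress and growth signals, had few closed regions. Over 23 genes 73 of 328 day 7 regions were opened (22.3%) and 57 of 328 day 1 regions closed (17.4%, 13.4 to 21.9%), the closed share being below the 35.4% of all linked regions. Klf6, a zinc finger factor, had 9 of 28 opened and 4 of 23 closed, Jun 7 of 18 and 4 of 19, Fosl2 7 of 42 and 4 of 33, and Batf 7 of 10 and 0 of 3. Fos had 5 of 31 opened and 7 of 36 closed and Ier5, an early-response gene, 5 of 27 and 7 of 28. Most regions of these genes were shared by both times. The opened share of changed regions was 56.2%, and 67.0% with the 100000 strongest regions of each list. With a fold of at least 10 required, 0 of 116 day 7 regions were opened and 5 of 135 day 1 regions closed (3.70%). The shares of all linked regions at that fold were 1.79% opened and 6.19% closed. RUNX and TEAD genes lay near the background, with 50 of 254 opened (19.7%) and 94 of 286 closed (32.9%). Within them Tead1, a Hippo-pathway factor, had 20 of 62 opened and 16 of 61 closed, Runx1 9 of 62 and 17 of 61, Runx2, a factor of mesenchymal and bone cells, 5 of 34 and 22 of 50, and Wwtr1 (the coactivator TAZ) 3 of 25 and 14 of 34.

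Inflammatory and NF-kB genes had 72 of 461 day 7 regions opened (15.6%, 12.4 to 19.3%) and 191 of 510 day 1 regions closed (37.5%, 33.2 to 41.8%), the opened share being below and the closed share near the background. Of 30 genes, 19 had more closed and 7 more opened regions, an order also seen over all genes (8418 and 4023). Nfkb1, which encodes the NF-kB subunit p50, had 7 of 44 opened and 55 of 88 closed, of which 49 lay inside the gene; closed day 1 folds ran from 2.68 to 22.7. Il33, an alarmin, had 4 of 25 and 12 of 29, and it was the only gene of all the groups with its start in a closed region (day 1 fold 9.61). Such starts were rare, at 0.846% of all promoters. Lif, a cytokine of the interleukin 6 family, had 0 of 25 opened and 11 of 28 closed, Osmr, the oncostatin M receptor, 2 of 20 and 10 of 25, and Cxcl5 and Cxcl1, neutrophil chemokines, 0 of 5 and 1 of 8 opened and 9 of 14 and 8 of 15 closed. Nfkbiz, Stat3 and Nfkbia, regulators of the response, had more opened than closed regions, with 12 of 35, 11 of 29 and 6 of 26 opened and 4 of 26, 3 of 20 and 3 of 19 closed. The opened share of changed regions was 27.4%, and 41.2% with the 100000 strongest regions of each list.

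EGFR-MAPK genes were mixed within each role. Tgfa and Hbegf, ligands of the EGF receptor, had 11 of 21 and 9 of 15 regions opened and 2 of 14 and 3 of 9 closed. The ligands Areg, Ereg and Btc had 0 of 1, 0 of 3 and 2 of 6 opened and 2 of 3, 3 of 5 and 3 of 7 closed. Egfr, the receptor, had 7 of 51 opened and 22 of 57 closed, and the related receptors Erbb2 and Erbb3 1 of 6 and 2 of 6 opened and 0 of 4 closed each. Spred1 and Spred2, inhibitors of the pathway, had 2 of 15 and 6 of 31 opened and 26 of 40 and 21 of 45 closed, and the phosphatases Dusp5 and Dusp1 7 of 30 and 5 of 26 opened and 10 of 28 and 0 of 19 closed. The 20 genes together had 61 of 285 opened (21.4%) and 121 of 324 closed (37.3%), both near the background. Among cell cycle genes, with 33 of 146 opened and 42 of 153 closed (44.0% of changed regions opened, and 67.4% with the 100000 strongest regions of each list), Cdkn1a, the inhibitor p21, had 10 of 15 opened and 0 of 8 closed, and Cdk6, a G1 kinase, 1 of 13 and 9 of 20.

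Genes of fibroblasts and stellate cells closed at many of their regions. Over 18 genes 260 of 493 day 1 regions were closed (52.7%, 48.2 to 57.2%) and 15 of 305 day 7 regions opened (4.92%, 2.78 to 7.98%), and all 18 had more closed than opened regions. Tnc, the injury-induced matrix protein tenascin-C, had 0 of 23 day 7 regions opened and 76 of 94 day 1 regions closed, 69 of them inside the gene. The closed regions of Tnc had day 1 folds of 2.84 to 12.9, median 4.73, while its 18 shared day 1 regions had folds of 5.20 to 83.5, median 22.5. Col5a1, Col6a3 and Col1a2, collagen chains, had 6 of 53, 0 of 38 and 0 of 21 opened and 52 of 93, 33 of 62 and 14 of 35 closed. Dcn, a matrix proteoglycan, had 0 of 9 and 14 of 23. Closed gene ends occurred at 11 of the 18 genes, against 20.8% of all genes with a day 1 region there. Opened ones occurred at 2 of the 18, near the 14.3% of all genes with a day 7 region there.

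Stromal transcription factor genes showed the same direction, with 34 of 362 opened (9.39%, 6.59 to 12.9%) and 202 of 464 closed (43.5%, 39.0 to 48.2%). Ebf1, a factor of B cells and stromal cells, had 6 of 76 and 60 of 113, Ebf2, of mesenchymal cells, 3 of 35 and 33 of 56, and Zeb1 and Zeb2, factors of mesenchymal state, 4 of 38 and 0 of 46 opened and 23 of 52 and 28 of 65 closed. The strongest closed regions were at Zeb1 (day 1 fold 32.3) and Ebf1 (30.6). Over both groups, 33 genes, 49 of 667 day 7 regions were opened (7.35%) and 462 of 957 day 1 regions closed (48.3%, 45.1 to 51.5%). With a fold of at least 10 required, 0 of 200 were opened and 31 of 303 closed (10.2%). The shares of all linked regions at that fold were 1.79% opened and 6.19% closed.

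The label of purified epithelium sits beside many regions at genes of other cells. At every gene of the fibroblast and stromal groups both times had regions, and endothelial genes had 198 at day 7 and 181 at day 1. Endothelial genes had 54 of 198 regions opened (27.3%, 21.2 to 34.0%), above the 20.8% of all linked regions, and 55 of 181 closed (30.4%). The opened share of their changed regions was 49.5%, or 61.3% with the 100000 strongest regions of each list. By gene the order was the reverse: of 16 endothelial genes, 9 had more closed regions, 5 more opened ones and 2 equal numbers. Erg, an endothelial ETS factor, had 13 of 31 and 6 of 21, Vwf, the clotting protein, 7 of 20 and 4 of 16, Flt1, a VEGF receptor, 6 of 18 and 1 of 13, and Fli1, another ETS factor, 3 of 9 and 8 of 14. Leukocyte genes had few regions, 36 at day 7 and 43 at day 1, with 8 opened and 17 closed, but 8 opened and 5 closed with the 100000 strongest regions of each list. Ptprc, which encodes CD45, had 4 regions at day 7 and 10 at day 1, Csf1r, the macrophage growth factor receptor, 6 and 11, and Adgre1 and Ly6g, which mark macrophages and neutrophils, none at either time. Stromal genes thus had more closed than opened regions where enzyme genes had more opened than closed ones, and the part of this in the acinar and inflammatory results was not tested. In a bulk library, fewer cells of a type and less accessibility per cell cannot be told apart.

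Tuft cell genes, of chemosensory cells that appear in injured pancreas, had 30 of 146 regions opened (20.5%) and 56 of 162 closed (34.6%), as in the background. Dclk1, a kinase that marks them, had 3 of 42 and 27 of 63, and Pou2f3, their master regulator, 7 of 12 and 6 of 11. Endocrine genes had 23 of 107 opened and 32 of 113 closed, but 22 opened and 8 closed with the 100000 strongest regions of each list and 15 opened and 13 closed with the gap of 500 bp. Pdx1, a factor of pancreatic progenitors and beta cells, had 6 of 11 and 0 of 6, and Pax6, an islet factor, 1 of 20 and 10 of 27. Ubiquitous genes had 28 of 112 opened (25.0%) and 20 of 99 closed (20.2%, 12.8 to 29.5%), the closed share lying below the 35.4% of all linked regions. Skeletal muscle genes, with 7 of 20 opened and 12 of 23 closed, had too few regions to set apart from the background.

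The single strongest changed regions were at genes outside these groups. The 10 opened regions with the highest day 7 fold and a gene within 50 kb were linked to Cracdl (29.0), Prkcb (27.1), Mark2 (26.1), Ksr2 (23.6), Hmcn2 (23.4), Fam25c (22.8), Zmynd8 (22.8), Fkbp6 (22.3), Rbbp8 (22.0) and Atp6v0a4 (21.5). The region in Cracdl spanned chr1:37616453-37617411 and lay inside the gene, 5115 bp from its nearer end, and that in Prkcb, a gene of protein kinase C, spanned chr7:122390108-122390844. Mark2 is a polarity kinase and Atp6v0a4 a proton pump subunit. The 10 closed regions with the highest day 1 fold were linked to Map1s (56.9), Itpr2 (54.4), B4galt1 (49.8), Mtmr7 (46.6), 2410004P03Rik (42.7), Ndufa10 (42.1), Tent5a (41.4), Lsm14b (40.3), Txndc2 (39.9) and Shisa6 (39.7). The region nearest Map1s, a microtubule-associated protein gene, spanned chr8:70903066-70904913, 2311 bp outside it, and that in Itpr2, an inositol trisphosphate receptor gene of acinar cells, spanned chr6:146185487-146186169. All 10 opened regions overlapped a day 28 region and 0 of the 10 closed ones did. Among all changed regions with a fold of at least 10, 97.2% of opened and 5.12% of closed ones did. These counts therefore do not set the named regions apart from other strong changed regions.

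By number, the genes with the most opened regions were Prdm16 (47 of 80), Chka (39 of 44), Jak1 (35 of 76), Baiap2 (34 of 69), Casz1 (34 of 65), Nav2 (33 of 83), Arhgap26 (29 of 123), Zmiz1 (29 of 112), Rap1gap2 (29 of 57) and Foxp1. Prdm16 and Casz1 encode zinc finger factors, Chka choline kinase and Jak1 a cytokine receptor kinase. Casz1 had 0 of 34 day 1 regions closed, and Chka 1 of 7. The genes with the most closed regions were Slit3 (102 of 174), Tnc, Tshz2 (75 of 171), Rbms3 (75 of 164), Arhgap24 (68 of 124), Ebf1, Tenm4 (60 of 95), Cd44, Fndc3b (56 of 153) and Nfatc1 (56 of 108). Slit3 encodes a secreted guidance protein, at which 12 of 107 day 7 regions were opened.

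By share, among genes with at least 10 regions, the most opened were Dnajb13 (10 of 11), Cela2a, Chka, Dmbt1 (17 of 20), Ero1b (10 of 12), Coq8a (18 of 22), 2210010C04Rik (9 of 11), Ripk4 (9 of 11), Aoah (8 of 10) and Cdcp3 (8 of 10). Dmbt1 encodes a secreted scavenger receptor protein and Ero1b an oxidase of the endoplasmic reticulum that is abundant in the pancreas. The most closed were Zic4 (15 of 16), Tnfsf11 (13 of 14), Bckdha (10 of 11), Pcdh18 (10 of 11), Armc4 (9 of 10), Cldn5 (11 of 13), Sdc2 (10 of 12), Ptprq (9 of 11), Tle1 (13 of 16) and Reps2 (17 of 21). Tnfsf11 encodes RANKL, Cldn5 a tight junction protein of endothelium and Sdc2 a cell-surface proteoglycan.

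Whether a change was still present later was read from the day 28 list, which neither definition used. The background pileup of the day 28 library was 2.52, so its depth was nearer to day 7 than to day 1, and the part of depth in what follows was not tested. Of opened regions 17985 of 30416 overlapped a day 28 region (59.1%, 58.6 to 59.7%), and of day 7 regions shared with day 1, 69.7%. Of closed regions 5203 of 60073 did (8.66%, 8.44 to 8.89%), and of shared day 1 regions 72.9%. Within a fold of at least 10, 881 of 906 opened regions (97.2%) and 204 of 3985 closed regions (5.12%) overlapped a day 28 region. Most strong regions that appeared between days 1 and 7 were therefore listed at day 28, and most that disappeared were not.

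Groups differed in this share. Of opened enzyme regions 120 of 125 (96.0%) had a day 28 region, with 30 of 30 at lipases and 76 of 80 at proteases. Opened acinar factor regions had it in 112 of 127 cases (88.2%), unfolded protein response and secretory regions in 58 of 66 (87.9%) and injury genes in 15 of 16. In ductal and metaplasia genes it was 92 of 127 (72.4%), and 17 of 17 at Clu but 0 of 10 at Anxa1, an annexin with 10 of 27 day 7 regions opened. Fibroblast genes had 5 of 15, stromal factor genes 11 of 34 and endothelial genes 17 of 54 (31.5%), below the 59.1% of all opened regions. Closed regions had a day 28 region in 5 of 260 cases at fibroblast genes (1.92%) and in 20 of 69 at unfolded protein response and secretory genes (29.0%).

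**Figure D5:**
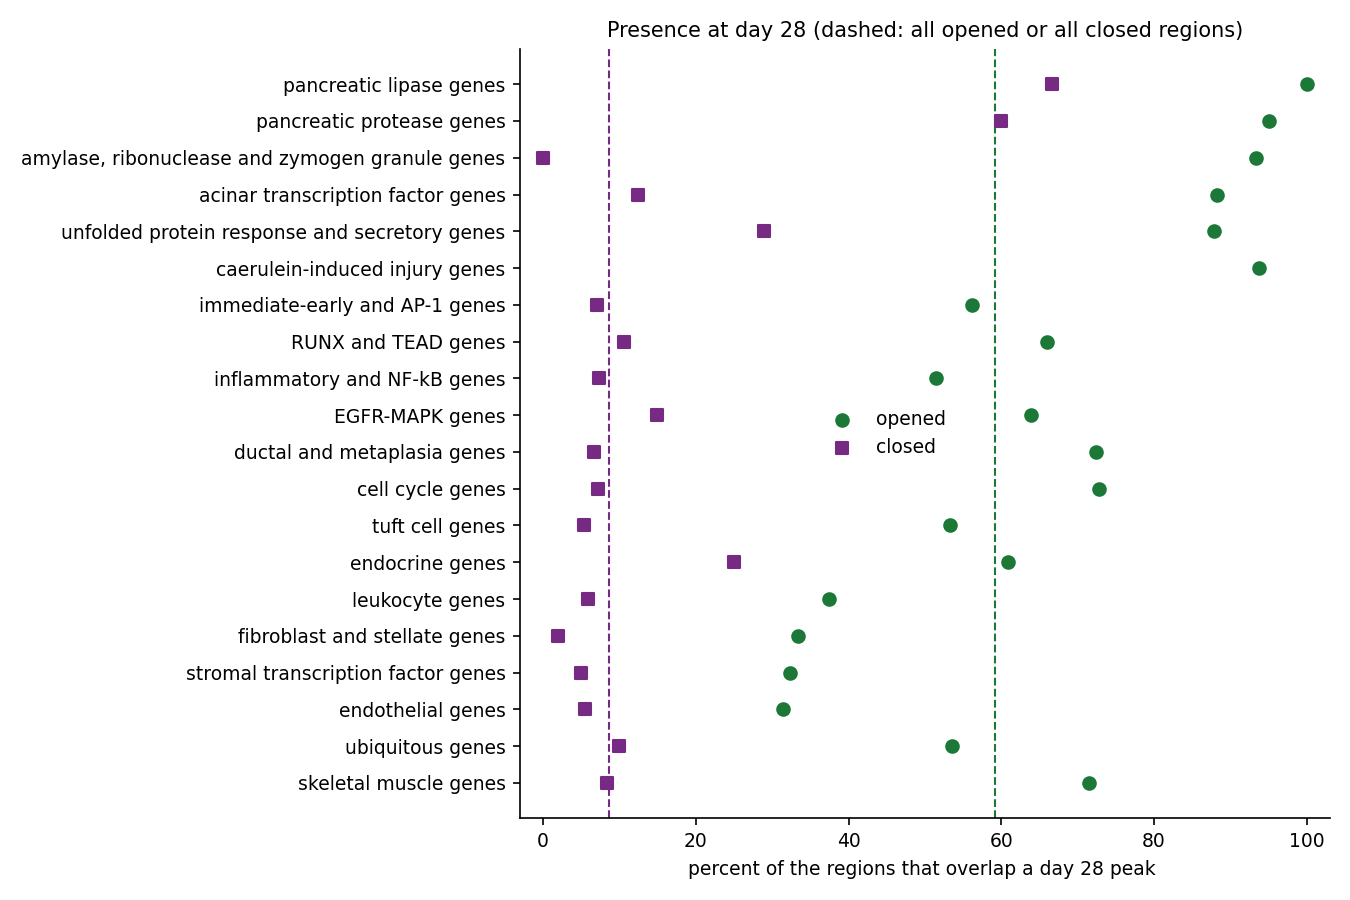
Percent of opened (circles) and closed (squares) regions of each gene group that overlap a day 28 region; dashed lines mark all opened regions (59.1%) and all closed regions (8.66%). Enzyme, injury, acinar factor and secretory genes lie right of the opened line, and fibroblast, stromal factor, endothelial and leukocyte genes left of it. Ductal and metaplasia, cell cycle, skeletal muscle, RUNX and TEAD, EGFR-MAPK and endocrine genes also lie right of it. Inflammatory, tuft cell, ubiquitous and immediate-early genes also lie left of it.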

How the data were processed

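ATAC-seq was run on purified pancreatic epithelium, per the labels' protocols. The submitters' processing notes list Bowtie2 2.2.6, MACS2 2.1.0.20150731, cutadapt, SAMtools and deepTools, with the builds GRCm38 and mm10; their options are not stated. The authors deposited 1 peak list per library. Their fold is a ratio of summit pileup to background, their −log10 p and −log10 q follow from it, and the deposited score is 10 times −log10 q in 100% of rows. Summit offsets are also the authors'. Assuming 1 background per list made every pileup whole (100%, tolerance 0.05), and this gave relative depth.

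Opened and closed regions were counted in python 3.11.15 (numpy 2.4.6, pandas 2.3.3), tested on simulated data and compared with bedtools 2.31.1, whose counts were also 30416 and 60073. Intervals are Clopper-Pearson at 95% (scipy 1.17.1). Summits were assigned to the closest RefSeq gene span of GRCm38.p6 within 50 kb; 0.912% of day 7 and 0.908% of day 1 summits lay in several spans. Of the genes in 20 lists, 325 matched and Ctrc did not. With 1 library per group, no test was run.

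Members and lists were chosen with earlier results of these data known. Named were the 10 strongest opened and closed regions with a gene, the 10 genes with the most and the 10 with the highest share of each (of at least 10 regions), up to 4 genes per list with at least 2 opened or closed regions, and list genes with a changed gene end; some genes that this rule names are not reported here. Krt8, Cxcl1, Ereg, Btc, Dusp1, Erbb2, Erbb3, genes named for having no region, and the Cela2a map were chosen after their values were seen. The untreated library and the 3 DCLK1-positive libraries were not used here.

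Alternatives were a −log10 q of at least 5, a common floor, the 100000 strongest regions, an overlap of 50%, a gap of 500 bp, links within 10 or 100 kb and, chosen after seeing the data, a fold of at least 10.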

Additional observations from a re-analysis of the deposited data

How the results depend on the processing

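No paired analysis was possible because each time had 1 library and the labels give no shared replicate numbers. Without replicates no library could be left out. Opened regions numbered from 20521 to 36495 and closed regions from 41815 to 74780 over the alternatives other than list length and the fold minimum. With the 100000 strongest regions of each list, 28210 regions were closed, 3 of them at digestive enzyme genes and 226 at fibroblast and stromal genes. With an overlap of at least 50%, closed enzyme regions were 16 and opened fibroblast and stromal regions 75. With no region of the other list within 500 bp, 3.19% of closed regions lay within 1 kb of a gene end, and opened fibroblast and stromal regions were 28. With links within 10 kb they were 31. With a fold of at least 10, chosen after seeing the data, 906 regions were opened and 3985 closed, 2.11% of closed regions lay within 1 kb of a gene end, enzyme genes had 13 opened and 0 closed, and fibroblast and stromal genes 0 opened and 31 closed; here only the stronger regions enter by construction. For the other shifts the cause was not tested. Of 40 values, 24 moved by over 1.5 times or 10 percentage points with the 100000 strongest regions, 14 with the gap, 8 each with the stricter q and the links within 10 kb, 4 with the larger overlap, 39 with the fold minimum, and 1 each with the common floor and the links within 100 kb. Where enzyme genes opened and fibroblast and stromal genes closed, the direction was kept in every alternative run. Depth limits weak regions: day 7 had the shallower library.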
